A study of Arabidopsis thaliana with 36 samples.

Results

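Transcript levels in plants lacking the transcription factor MYB61 were compared with those in plants lacking MYB50, in xylem and in cork of Arabidopsis thaliana. The comparison rests on 12 of the study's 36 arrays, chosen by their tissue and genotype labels, with 3 arrays in each of 4 groups: MYB61 knockout xylem, MYB50 knockout xylem, MYB61 knockout cork and MYB50 knockout cork. Each array held total RNA from 200 to 400 pooled plants grown on compost at 22 °C under 24 h of light, after stratification for 2 days at 4 °C. The alleles, the number of lines per knockout, the parental ecotype of the knockouts, the age of the plants and the organ that was separated are not given in the sources used here, and neither is what else the cork samples held. Col-0 plants, whose label names no mutation, gave 3 xylem and 3 cork arrays that are set beside the knockouts.

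MYB61 and MYB50 are related R2R3-MYB transcription factors. MYB61 is known for its roles in allocating carbon and nutrients, in stomatal opening, in root branching and in the formation of xylem, whereas MYB50 has been studied much less. During secondary growth the vascular cambium produces xylem on its inner side and phloem on its outer side, while the cork cambium produces cork, a protective layer of cells with suberised walls. Xylem vessels and fibres build a thick secondary wall of cellulose, xylan and lignin on top of the thin primary wall, which expansins, pectin-degrading enzymes and endoglucanases modify while cells grow.

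Values are scaled intensities from Affymetrix ATH1 arrays, on which a probe set stands for a transcript. Intensities under 16 are treated here as near background, and no fold is given where the lower group mean lies there. A fold is the ratio of the group means of intensity, and a log2 difference is MYB61 knockout minus MYB50 knockout on the log2(intensity + 16) scale, which understates changes of dim genes. A probe set is called where limma's moderated test, adjusted by Benjamini-Hochberg over the 15924 probe sets tested, gave an adjusted p under 0.05. Nothing in the labels says that the 3 RNA samples of a group came from separate plantings, so the spread between such samples may be technical. The p-values and standard errors (SE) use this spread pooled over the 12 groups of all 36 arrays, not that of the compared groups alone. Arrays within a group correlated at 0.958 to 0.990 over probe sets and arrays of different groups at 0.807 to 0.935, and all 12 arrays correlated best with an array of their own group. No probe set is named MYB61 or MYB50 in the annotation used here, so the knockouts could not be checked by the level of their own targets. In bulk samples, fewer cells of a type and less RNA per cell cannot be told apart. The ratio of the actin control probe sets from the 3′ and 5′ ends, which rises as RNA is shorter, was 1.164 to 1.268 in MYB61 knockout xylem against 1.302 to 1.418 in MYB50 knockout xylem, and 1.168 to 1.294 against 1.517 to 2.109 in cork, so that the groups did not overlap in either tissue. With this ratio as a covariate 5828 probe sets were called in xylem, 4284 in cork and 6475 in the mean over tissues, against 6195, 6400 and 8153 without it. The cork calls were then 1964 higher and 2320 lower in the MYB61 knockout, where they were 3250 higher and 3150 lower without the covariate.

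The 2 knockouts differed at a large share of probe sets in both tissues. In xylem 6195 probe sets were called (38.9% of those tested), 3285 of them higher in the MYB61 knockout (20.6%) and 2910 lower (18.3%). In cork 6400 were called (40.2%), 3250 of them higher (20.4%) and 3150 lower (19.8%). Averaged over the tissues, 8153 were called (51.2%), with 4308 higher (27.1%) and 3845 lower (24.1%). Most of the large differences were lower values in the MYB61 than in the MYB50 knockout, which does not say which knockout departed from Col-0. In the mean over tissues, 158 called probe sets were at least 2-fold higher and 607 at least 2-fold lower by log2 difference, and 14 were at least 4-fold higher against 79 at least 4-fold lower. The median over all tested probe sets was a log2 difference of 0.02 in the mean over tissues.

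Xylem and cork shared much, but not all, of the difference between the knockouts. Calls in a shared direction in both tissues numbered 3401 (21.4% of probe sets tested), which is 54.9% of the xylem calls and 53.1% of the cork calls. Another 228 (1.43%) were called in both tissues in opposite directions. Across probe sets the xylem and cork log2 differences, which share no array, correlated at 0.578 (15924 probe sets, which are not independent replicates). The difference between the knockouts was itself tested between tissues, and 2491 probe sets (15.6%) had a xylem difference unlike their cork difference, 1226 with the higher value in xylem (7.70%) and 1265 in cork (7.94%). A stricter set of 3905 probe sets (24.5%) was called in the mean over tissues with knockout groups that did not overlap, in the same direction, in either tissue.

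**Figure D1:**
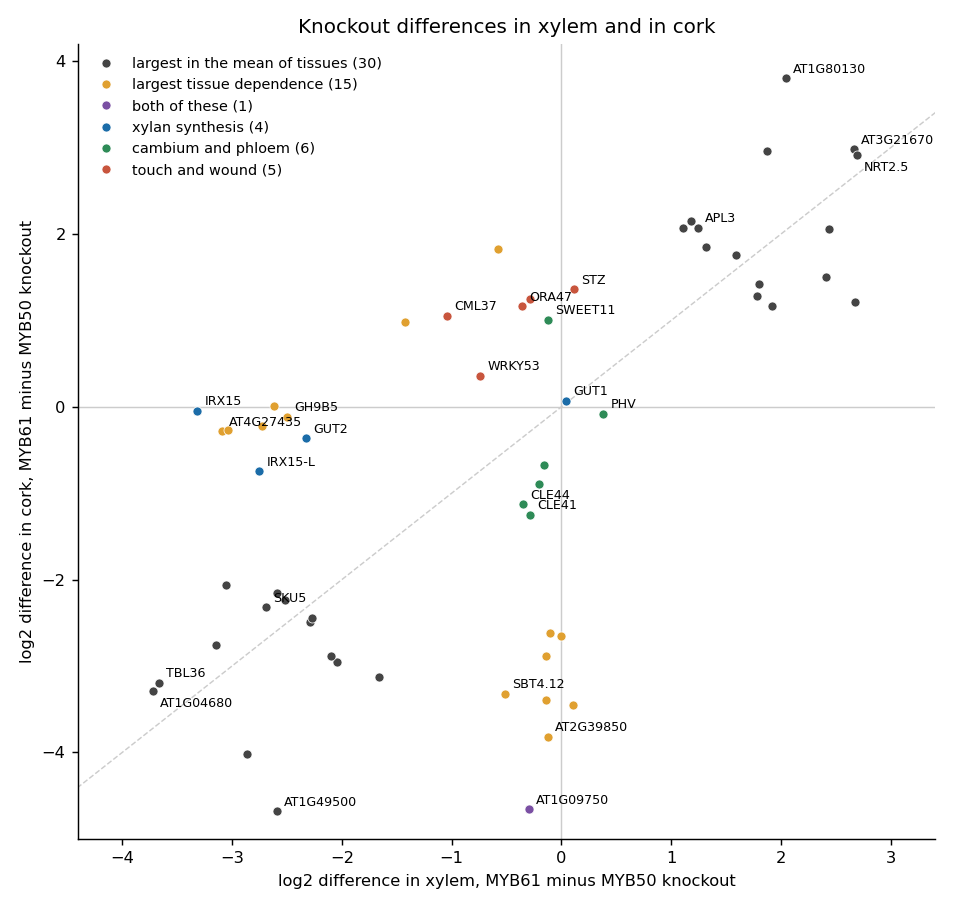
Each point is a probe set, placed by its log2 difference (MYB61 minus MYB50 knockout, log2(intensity + 16) scale) in xylem on the horizontal axis and in cork on the vertical axis, coloured by the group of genes it belongs to. Points near the dashed diagonal, such as NRT2.5 and TBL36, differed alike in both tissues, whereas IRX15 and GUT2 lie far left near the horizontal line and AT1G09750 and SBT4.12 far down near the vertical line.

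Both knockouts were also set against Col-0 in the same fit; the 2 sets of comparisons share the Col-0 arrays, so their values are given side by side. MYB61 knockout and Col-0 differed at 299 probe sets in xylem (1.88%) and at 1274 in cork (8.00%). MYB50 knockout and Col-0 differed at 7109 in xylem (44.6%) and at 6715 in cork (42.2%). The 15 genes with the largest higher values in the MYB61 than in the MYB50 knockout were first compared between MYB61 knockout and Col-0. Their median log2 difference was -0.08 in xylem and -0.24 in cork, with 1 gene called higher and 1 lower in each tissue. The differences ranged from -0.505 to 0.80 in xylem and from -0.67 to 1.81 in cork. Limma's unadjusted p was under 0.05 for 3 of these genes in xylem and for 7 in cork. In the MYB50 knockout, 14 of these 15 were called lower than Col-0 in each tissue, with medians of -2.00 in xylem and -2.01 in cork. The 15 genes with the largest lower values had medians of 0.02 in both tissues of the MYB61 knockout against Col-0, ranging from -0.62 to 0.85 in xylem and from -0.49 to 0.40 in cork. None of them passed limma's adjusted threshold there, and 4 in each tissue had an unadjusted p under 0.05. In the MYB50 knockout, 14 of those 15 were called higher than Col-0 in xylem (median 2.55) and 15 in cork (median 2.91). These genes were chosen by the difference between the same knockout arrays, so the counts are a description of them. The choice was made among called probe sets with 1 gene whose groups did not overlap in either tissue.

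Among these leading genes, AT1G47400, known here by its locus number alone, was the 1 called higher than Col-0 in the MYB61 knockout. CYP71B23 in xylem and AT4G33040 in cork were the ones called lower. The intensity of AT1G47400 was 32.6, 70.7 and 31.7 in MYB61 knockout xylem, 9.3, 8.0 and 12.5 in MYB50 knockout xylem, and from 13.6 to 21.7 in Col-0 xylem. Its cork values were 624.6, 410.6 and 371.3 in MYB61 knockout arrays, 77.3, 88.8 and 107.5 in MYB50 knockout arrays and 100.3, 156.8 and 106.6 in Col-0. The MYB61 knockout was the high group in both tissues, above all arrays of the other 2 genotypes. It exceeded Col-0 by a log2 difference of 0.80 in xylem (limma, adjusted p = 0.0279) and 1.81 in cork (adjusted p = 6.83e-07), whereas the MYB50 knockout against Col-0 gave -0.38 (adjusted p = 0.128) and -0.34 (adjusted p = 0.178).

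Genes for nitrate transport and for the recovery of nitrogen from purines were among those higher in the MYB61 than in the MYB50 knockout. NRT2.5 encodes a high-affinity nitrate transporter known to be induced when nitrogen is scarce. It read 272.2, 451.6 and 224 in MYB61 knockout xylem against 42.1, 20.2 and 41.4 in MYB50 knockout xylem, and 343.7, 367.9 and 407.7 against 39.9, 39.3 and 28.2 in cork. Col-0 read 411.5, 325.5 and 247.8 in xylem and 494.8, 467.1 and 377.7 in cork. All MYB61 knockout and Col-0 arrays lay far above all MYB50 knockout arrays. The MYB61 knockout was 9.14-fold above the MYB50 knockout in xylem (log2 difference 2.69 ± 0.18 SE, n = 3 arrays per group, limma adjusted p = 5.45e-13) and 10.4-fold in cork (adjusted p = 7e-14).

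AT3G21670, listed in RefSeq as NPF6.4, a member of a transporter family that takes up nitrate and peptides, behaved alike. Its intensity was 1211.6, 1046 and 1268.1 in MYB61 knockout xylem and 188.2, 125.7 and 211 in MYB50 knockout xylem, a 6.72-fold difference (limma adjusted p = 5.39e-15). In cork it read 369, 588.9 and 596.1 against 44.4, 55.5 and 50.6, a 10.33-fold difference (limma adjusted p = 1.44e-16). The groups did not overlap in either tissue. The related AT2G26690 (NPF6.2) was higher in xylem, at 212.3, 180 and 353.8 against 58.5, 68.6 and 39.8. In cork it read 48.5, 181.7 and 197 against 149.1, 159.5 and 162.9. There the first MYB61 knockout array lay below the MYB50 knockout and the others above it. The cork difference includes that array, whose quality weight was 0.218 against 1.416 and 1.137 for the others of its group. Its xylem difference of 4.47-fold (limma adjusted p = 8.27e-07) differed from its cork difference (xylem minus cork 2.16 ± 0.36 SE, adjusted p = 6.19e-05). These were not traits of the whole family. Of 12 tested members of the NRT and NPF families, 4 were higher and none lower in the mean over tissues, with a median log2 difference of 0.03. The count of any group averaged over tissues is read against the 27.1% of all tested probe sets that were higher and the 24.1% that were lower.

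Allantoin is an intermediate of purine breakdown from which plants regain ammonium, and it is cut by ALN (allantoinase) and then by AAH (allantoate amidohydrolase). ALN read 357.6, 318.3 and 290.8 in MYB61 knockout xylem against 87.6, 84.6 and 75.1 in MYB50 knockout xylem, and 235.3, 368.5 and 364.4 against 121.8, 124.8 and 116.9 in cork. The MYB61 knockout arrays were all above the MYB50 knockout arrays, by 3.91-fold in xylem and 2.66-fold in cork (mean over tissues 1.53 ± 0.08 SE on the log2 scale, limma adjusted p = 1.59e-16). AAH was 3.04-fold higher in xylem and 2.96-fold higher in cork of the MYB61 than of the MYB50 knockout (mean 1.41 ± 0.12 SE, limma adjusted p = 6.82e-11). URE, the urease, was higher by a mean log2 difference of 0.63 (limma adjusted p = 6.28e-09). UGLYAH, which acts on the product of AAH, gave -0.13 and was not called (limma adjusted p = 0.238). The 4 tested genes of this group thus had 3 higher, with a median of 1.02.

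Genes that supply starch synthesis and reserve carbon were higher in the MYB61 than in the MYB50 knockout as well. APL3, a large subunit of ADP-glucose pyrophosphorylase, which makes the precursor of starch, read 121.9, 65.7 and 118.4 in MYB61 knockout xylem against 31.6, 38.7 and 27.8 in MYB50 knockout xylem. Its cork arrays read 282.6, 394.1 and 463.5 against 71.7, 77.7 and 79.9. The groups stood apart in both tissues, 3.12-fold in xylem and 4.97-fold in cork (mean 1.66 ± 0.12 SE on the log2 scale, limma adjusted p = 7.72e-13). PPDK, pyruvate orthophosphate dikinase, was 4.85-fold higher in xylem and 4.54-fold higher in cork (limma adjusted p = 5.01e-12 for the mean). Its arrays read 72.1, 104.3 and 77.7 against 11.9, 22.8 and 17.7 in xylem and 97.9, 212.8 and 247.2 against 37.5, 54.5 and 30.8 in cork. SBE2.2, a starch branching enzyme, was higher by a mean log2 difference of 0.95 (limma adjusted p = 1.16e-07). DPE1, a plastid enzyme of starch breakdown, gave -0.01 and was not called (limma adjusted p = 0.953). Of the 4 tested members of the starch and sugar list, 3 were therefore higher, with a median of 1.31. Their summed xylem level was 516.5 to 678.9 in the MYB61 knockout, 569.4 to 680.9 in Col-0 and 314.4 to 351.2 in the MYB50 knockout. In cork the sums were, in that order, 716 to 1275.6, 1204.6 to 1299 and 343 to 435.5.

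Among transcription factors, 12 of 17 tested bZIP genes were higher in the MYB61 knockout in the mean over tissues and 2 lower (median 0.33), where 27.1% of all tested probe sets were higher and 24.1% lower. bZIP44, from a group of small bZIP proteins whose translation is repressed by sucrose, read 426.9, 556 and 492.8 in MYB61 knockout xylem against 122.7, 106.9 and 123.8 in MYB50 knockout xylem. The cork arrays read 619.7, 1151.3 and 1114.5 against 405.8, 409.9 and 394. The arrays of the 2 knockouts did not overlap, with a 4.18-fold difference in xylem and a 2.39-fold difference in cork (limma adjusted p = 3.7e-13 for the mean). bZIP48 was higher in xylem by a log2 difference of 1.77 (limma adjusted p = 7.15e-11) and was -0.09 in cork (adjusted p = 0.652), and the tissues differed (adjusted p = 1.89e-07). HAT2, an auxin-induced homeodomain-leucine zipper gene, read 485.1, 364 and 395.5 against 99.1, 128.7 and 97.7 in xylem (limma adjusted p = 4.79e-07). In cork it read 103.1, 332.9 and 325.1 against 164.4, 152.2 and 164.2, where the first MYB61 knockout array lay below the MYB50 knockout and the other two above it. The cork log2 difference of 0.46 was not called (limma adjusted p = 0.131), but without that array it was 0.97 (adjusted p = 3.7e-05).

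**Figure D2:**
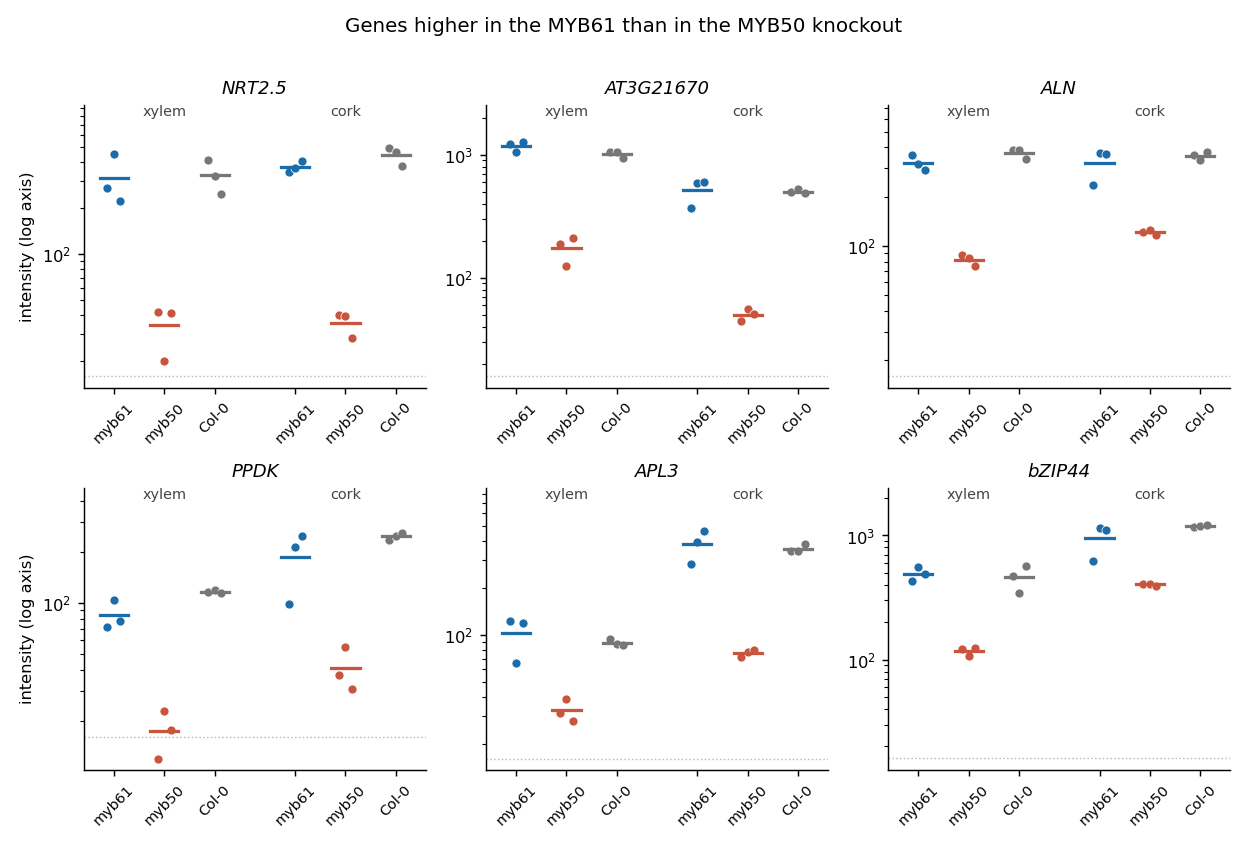
Intensity on a log axis in each array of the MYB61 knockout, the MYB50 knockout and Col-0, in xylem and in cork, for genes higher in the MYB61 knockout, with bars at group means and a dotted line at 16. The MYB61 knockout points lie above the MYB50 knockout points in both tissues and near the Col-0 points.

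The largest lower values in the MYB61 than in the MYB50 knockout included many genes that build or loosen the cell wall. TBL36 belongs to a family of proteins that acetylate wall polysaccharides. It read 118.2, 76.9 and 67.7 in MYB61 knockout xylem against 1321.5, 1093.2 and 1435.8 in MYB50 knockout xylem, and 89.9, 150.4 and 174.1 against 1521.3, 1201.7 and 1354.2 in cork. The groups lay 14.7-fold apart in xylem (limma adjusted p = 8.39e-15) and 9.84-fold apart in cork (adjusted p = 9.26e-14). The TBL family varied: of 16 tested probe sets, TBL36 among them, 8 were lower and 3 higher in the mean over tissues, with a median of -0.30. TBL45 gave a mean log2 difference of -1.57 (limma adjusted p = 8.42e-12) and TBL39 -1.33 (adjusted p = 3e-11), the latter larger in cork than in xylem (xylem minus cork 1.39, adjusted p = 4.02e-05).

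Similar gaps were seen for AT1G04680 and AT1G67750, pectate lyase-like genes whose products cleave pectin. AT1G04680 read 45.2, 43.7 and 57.2 against 907.8, 729.8 and 869.5 in xylem and 51.5, 77.3 and 80.3 against 912.4, 756.8 and 776.2 in cork. Every MYB61 knockout array was lower than every MYB50 knockout array, by 17.2-fold in xylem and 11.7-fold in cork (limma adjusted p = 9.59e-21 for the mean over tissues). AT1G67750 was lower by 11.6-fold in xylem and 8.02-fold in cork (limma adjusted p = 2.8e-19). SKU5, a wall-anchored protein that affects the direction of root growth, read 21.8, 19.8 and 3.0 against 162.9, 175.4 and 184.9 in xylem and was 5.88-fold lower in cork (limma adjusted p = 1.3e-12 for the mean).

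Leading genes were ranked among called probe sets with 1 gene whose groups did not overlap in either tissue. Of these, AT1G49500, for which only a locus number is given, had the largest log2 difference in the mean over tissues. It read 1.8, 4.4 and 1.5 in MYB61 knockout xylem against 94.4, 88.8 and 104.8 in MYB50 knockout xylem, and 11.6, 2.5 and 0.9 against 551.1, 494.5 and 488.3 in cork. Its Col-0 arrays read 1.8, 1.4 and 6.6 in xylem and 3.9, 6.6 and 5.8 in cork, so that the MYB50 knockout alone was above background (limma adjusted p = 1.53e-21 for the mean). On the higher side of the same ranking AT1G80130, also a locus number alone, led. It read 402.2, 768.9 and 777 in MYB61 knockout cork against 37.3, 26.5 and 26.1 in MYB50 knockout cork, a 21.7-fold gap, and was 6.90-fold higher in xylem (limma adjusted p = 2.71e-13 for the mean).

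Expansins loosen the wall without cutting it. Of 9 tested expansin genes, 5 were lower and 1 higher in the mean over tissues, with a median of -0.70. EXPA4 read 221.2, 158.2 and 139.7 against 673.8, 775.4 and 667.2 in xylem and 224.2, 419.8 and 416.7 against 1431.8, 1217.2 and 1129.9 in cork, so that the groups stood apart by 4.08-fold and 3.56-fold (mean -1.89 ± 0.11 SE on the log2 scale, limma adjusted p = 4.25e-15). EXPB3 depended on the tissue. It was 3.21-fold lower in xylem, at 78.2, 37.8 and 44.5 against 130.1, 217 and 167.6, and 8.86-fold lower in cork, at 61.6, 148.4 and 155.6 against 1154, 1023.5 and 1063.1 (difference between tissues, limma adjusted p = 0.000359). The expansin-like EXLB1 went the other way and was higher by a mean log2 difference of 0.92 (limma adjusted p = 1.47e-07). Among xyloglucan enzymes, 1 of 5 tested was lower in the mean over tissues, XTH32 at -1.12 (limma adjusted p = 1.6e-10).

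GH9 endoglucanases cut glucan chains of the wall, and 7 of 8 tested members were lower and none higher (median -1.07; 24.1% of all tested probe sets were lower). GH9B8 read 19.7, 14.4 and 12.5 in MYB61 knockout xylem against 83, 85.7 and 85 in MYB50 knockout xylem. Cork arrays read 41.5, 39 and 41.8 against 396.8, 422.2 and 394.8, a 9.93-fold gap between groups that each varied little. GH9B7 was 5.80-fold lower in xylem and 3.21-fold lower in cork. GH9B5 was lower in xylem, at 8.5, 20.2 and 7.6 against 154.4, 115.7 and 153.6. Its xylem and cork differences were unlike each other (xylem minus cork -2.39).

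Tubulins form the microtubules that guide cellulose deposition, and 4 of 6 tested tubulin genes were lower (median -0.88). TUB5 read 28.8, 23.1 and 21.8 against 149.4, 131.1 and 181.4 in xylem and 71.9, 83 and 82.5 against 298.2, 308.6 and 374 in cork. The groups were 6.27-fold and 4.13-fold apart, without overlap (mean -1.95 ± 0.12 SE on the log2 scale, limma adjusted p = 2.15e-14). TUB6 was 3.62-fold lower in xylem, at 171.7, 158.1 and 175.8 against 638.3, 539.7 and 649.5. The IQD family includes microtubule-associated calmodulin-binding proteins. IQD31, IQD30 and IQD23 were lower by mean log2 differences of -1.51, -1.36 and -1.22, while IQD24 and IQD22 were higher by 0.97 and 0.95, so that 4 of 9 tested members were lower and 2 higher (median -0.02).

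RALF peptides are secreted signals perceived by wall-monitoring receptor kinases. Of 6 tested, 5 were lower in the mean over tissues and none higher (median -1.10). RALFL34 read 26.3, 34.6 and 35.5 in MYB61 knockout cork against 195.1, 228.8 and 206.6 in MYB50 knockout cork, a 6.54-fold gap, and had the smallest adjusted p of the family in the mean over tissues (limma, 4.7e-18). RALFL32 was 1.80-fold lower in xylem and 4.22-fold lower in cork, and the tissues differed (limma adjusted p = 0.00179). MYB61 knockout cork read 99.3, 214.4 and 215.6, MYB50 knockout cork 819.7, 664.6 and 750.6, and Col-0 cork 180.4, 182.3 and 163.5, so that Col-0 lay among the MYB61 knockout arrays and far below the MYB50 knockout.

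**Figure D3:**
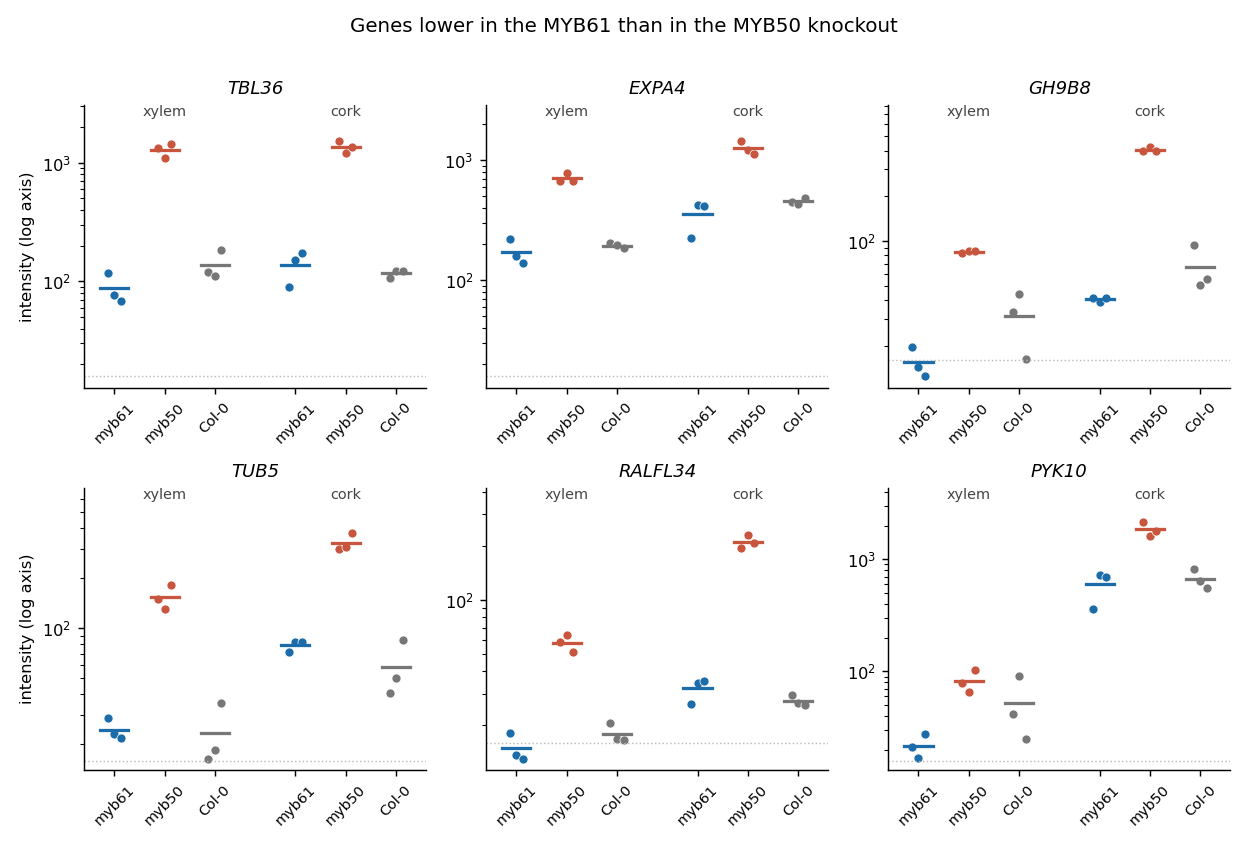
Intensity on a log axis in each array of the MYB61 knockout, the MYB50 knockout and Col-0, in xylem and in cork, for genes lower in the MYB61 knockout, with bars at group means and a dotted line at 16. The MYB50 knockout points lie above the MYB61 knockout points in each panel, by 14.7-fold for TBL36 in xylem and 9.93-fold for GH9B8 in cork, and above Col-0 except for PYK10 in xylem, where 1 Col-0 array lies among them.

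The endoplasmic reticulum body is a compartment that stores beta-glucosidases against herbivores. Genes for its secretory and defence proteins were lower in the MYB61 than in the MYB50 knockout. PYK10, its main beta-glucosidase, read 363.3, 732 and 696.8 in MYB61 knockout cork against 2138.2, 1624 and 1775 in MYB50 knockout cork, and 21, 16.8 and 27.7 against 79.2, 65.5 and 103.3 in xylem. The groups did not overlap, at 3.09-fold in cork and 3.79-fold in xylem (limma adjusted p = 2.27e-09 for the mean). NAI2, needed to form the bodies, and JAL34, a jacalin-related lectin that binds PYK10 complexes, were lower by mean log2 differences of -0.95 (limma adjusted p = 7.62e-13) and -1.38 (adjusted p = 5.19e-17). In all, 6 of 7 tested genes of this group were lower (median -1.20). Their summed cork level was 1011.7 to 1713.1 in the MYB61 knockout, 1500.7 to 1821 in Col-0 and 3896.9 to 4384.9 in the MYB50 knockout. In xylem the sums were, in that order, 100.9 to 108.2, 123.2 to 244 and 252.7 to 305.9. Of 12 tested beta-glucosidases, PYK10 among them, 10 were lower and none higher (median -0.62). These summed to 1361 to 1741.6, 1560.1 to 1921.2 and 3550 to 4236 in cork, in the same order of genotypes. Serine carboxypeptidase-like genes, secreted hydrolases and acyltransferases, had 11 of 17 lower and none higher in the mean over tissues (median -0.40). The member scpl48 read 89.3, 92 and 78.8 against 539.2, 476 and 547.5 in xylem, a 6.01-fold gap, but was 1.56-fold lower in cork (difference between tissues, limma adjusted p = 3.52e-08).

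In the metabolism of acetyl-CoA and citrate, 7 of 9 tested genes were lower and none higher in the mean over tissues (median -0.45). In xylem 7 were lower (median -0.75) and in cork 6 (median -0.24). Their summed xylem level was 2431.1 to 2676 in the MYB61 knockout, 2326.2 to 2647.6 in Col-0 and 4175.3 to 4786.9 in the MYB50 knockout. In cork the sums were, in that order, 2651.5 to 2919.9, 2515 to 2891.6 and 3740.3 to 4415.5. ACLA-2, a subunit of the ATP-citrate lyase that makes cytosolic acetyl-CoA, read 52.9, 50.3 and 38 in MYB61 knockout xylem against 513.2, 371.3 and 488.4 in MYB50 knockout xylem. In cork it read 21.8, 28.3 and 21.8 against 47.5, 41.1 and 42. The groups stood apart in both tissues, but by 9.72-fold in xylem and 1.82-fold in cork, and the tissues differed (xylem minus cork -2.33 ± 0.21 SE, limma adjusted p = 3.45e-09). ACLA-1 was 2.84-fold lower in xylem and 1.46-fold lower in cork. Both cork calls were lost with the actin ratio as a covariate (adjusted p = 0.0541 for ACLA-2 and 0.12 for ACLA-1).

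Nuclear genes of photosynthesis were mostly lower: 10 of 12 tested, with 2 higher (median -0.55). LHCB4.2, a minor antenna protein of photosystem II, read 51.9, 96.7 and 97 in MYB61 knockout cork against 355.4, 367.7 and 319.2 in MYB50 knockout cork, and was 4.24-fold lower there and 3.18-fold lower in xylem. Col-0 cork read 102.7, 159.1 and 189.7, between the knockouts. RCA, the activase of Rubisco, was higher in the MYB61 knockout by a mean log2 difference of 0.73 (limma adjusted p = 0.00027). The summed level of the 12 genes was 954.7 to 1105 in MYB61 knockout xylem against 1394.5 to 1487.3 in MYB50 knockout xylem, and 1834.4 to 2750.3 against 3389.4 to 3442.6 in cork. Genes encoded by the plastid itself had 33 of 69 tested probe sets lower and none higher in xylem (median -0.40), where 18.3% of all tested probe sets were lower. In cork 12 were lower and 7 higher (median -0.04), both below the shares of all tested probe sets (19.8% lower and 20.4% higher). The counts were 1 lower and 6 higher without the MYB50 knockout array labelled a repeat and the MYB61 knockout cork array of lowest weight. The array control for 25S ribosomal RNA read 1000.2 to 1686.7 in MYB61 knockout xylem and 192.4 to 712 in MYB50 knockout xylem, without overlap. In cork it read 186.5 to 2389.3 against 130.2 to 1388.2. How this control relates to the plastid-encoded values was not tested.

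Genes for xylan, the main hemicellulose of secondary walls, were lower in xylem of the MYB61 knockout, by much more than in cork. IRX15 and IRX15-L are needed for normal xylan chain length, and GUT2 (also called IRX10) is a xylan xylosyltransferase. IRX15 read 21.1, 35.7 and 10.5 in MYB61 knockout xylem, 414.2, 260.5 and 405 in MYB50 knockout xylem and 5.6, 18.4 and 94.1 in Col-0 xylem. Both the MYB61 knockout and Col-0 had 1 array under 16, whereas the MYB50 knockout was bright in all 3. The 16.0-fold gap between the knockouts in xylem (limma adjusted p = 4.97e-10) had no counterpart in cork, where the arrays read 12.9, 11.6 and 8.8 against 11.7, 15.6 and 8.9 (xylem minus cork -3.27 ± 0.44 SE, adjusted p = 2.47e-06).

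GUT2 read 103, 102.1 and 71.3 against 572.8, 422.3 and 580.8 in xylem, a 5.70-fold gap (limma adjusted p = 4.95e-13). In cork it read 49.6, 56.6 and 41.2 against 64.9, 66.2 and 70.9, which did not overlap but missed the threshold (adjusted p = 0.0644). Its tissues differed (xylem minus cork -1.96, adjusted p = 1.36e-07). IRX15-L was 8.43-fold lower in xylem, at 49.8, 70.2 and 29.5 against 473.4, 313.8 and 473.3, and 1.94-fold lower in cork, and again the tissues differed (limma adjusted p = 4.17e-06). GUT1, the close relative of GUT2, was not called (mean 0.06, limma adjusted p = 0.459). Of the 4 tested xylan genes, 3 were thus lower in xylem (median -2.54) and 1 in cork (median -0.20). Among all tested probe sets, 18.3% were lower in xylem and 19.8% in cork. The 4 together summed to 278.4 to 387.2 in MYB61 knockout xylem and 1153 to 1634.2 in MYB50 knockout xylem. The lignin genes HCT, an acyltransferase of the monolignol pathway, and PRX52, a peroxidase, were both lower, by mean log2 differences of -0.50 (limma adjusted p = 1.95e-05) and -0.55 (adjusted p = 1.16e-05). No gene of the lists for secondary wall cellulose or for the death programme of vessel cells was among the probe sets tested with a gene name. In Col-0 the 4 xylan genes summed to 295.9 to 500.9 in xylem and 222.9 to 258.5 in cork. In MYB50 knockout cork they summed to 303.1 to 345.9, below its xylem sums. In the MYB61 knockout the xylem sums overlapped the 246.8 to 282 of cork. The 2 lignin genes summed higher in xylem than in cork in every genotype, at 1252.5 to 1840.5 against 826.3 to 973.2 in Col-0. The knockouts gave 1089.9 to 1495.1 against 716.9 to 797.4 (MYB61) and 1878.2 to 2110.5 against 930.2 to 1074 (MYB50). The check of the xylem label from markers of secondary walls rests on these few genes.

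Other genes were lower in cork of the MYB61 knockout with little or no difference in xylem. AT1G09750, of the aspartyl protease family, had the largest difference between the tissues. Its intensity was 18.3, 18.3 and 14.2 in MYB61 knockout cork, 857, 755.3 and 831.9 in MYB50 knockout cork and 17, 16.5 and 17.5 in Col-0 cork. The MYB50 knockout was the bright group, 48.1-fold above the MYB61 knockout (limma adjusted p = 7.43e-24), while in xylem all 3 genotypes had means near background. AT2G39850, for which only a locus number is given, read 14.2, 10.4 and 23.9 against 434, 473.9 and 388.1 in cork, a 26.7-fold gap. Its highest xylem array among the knockouts read 6.6. SBT4.12, a subtilisin-like protease, read 46.8 in the highest and 11.8 in the middle of its MYB61 knockout cork arrays against 341.1, 352.2 and 331.7 in MYB50 knockout cork, a 14.9-fold gap, and its xylem and cork differences were unlike (xylem minus cork 2.81 ± 0.28 SE, limma adjusted p = 1.49e-08).

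FACT, which makes fatty alkyl caffeates found in suberised tissue, served as the tested marker of cork. It read 76.4, 90.8 and 84.7 in MYB61 knockout cork, 242.1, 222.5 and 216.3 in MYB50 knockout cork and 112.5, 120.8 and 109 in Col-0 cork, against group means of 14.6 and 19.1 in xylem of the knockouts. The 3 cork groups did not overlap, and the knockouts lay 2.703-fold apart (limma adjusted p = 3.18e-10; difference between tissues, adjusted p = 2.1e-05). The part of this marker's level in the other cork differences was not tested.

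Peptide signals and receptors of the vascular cambium were also lower in cork. CLE41 encodes a peptide made in phloem that keeps the cambium dividing through the receptor PXY. It read 365.2, 410.5 and 417.1 in MYB61 knockout cork against 1029.4, 929.2 and 937.8 in MYB50 knockout cork, with 367.6, 349.4 and 343.6 in Col-0 cork. The MYB61 knockout was close to Col-0 and the MYB50 knockout above both, by 2.43-fold over the MYB61 knockout (limma adjusted p = 2.21e-10). In xylem CLE41 was dim, with means of 25.6 and 34.5, and the tissues differed (limma adjusted p = 5e-05). CLE44, which encodes the same peptide, was 2.501-fold lower in cork (limma adjusted p = 5.93e-07), and MOL1, a receptor-like kinase that restrains cambial activity, 1.68-fold lower (adjusted p = 8.2e-07). In all, 3 of 4 tested cambium genes were lower in cork, where 19.8% of all tested probe sets were, and the fourth, the class III homeodomain gene PHV, was not called there. PHV was higher in xylem by a log2 difference of 0.38 (limma adjusted p = 0.00311).

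The phloem list, which shares CLE41, moved in more than a single direction in cork. OPS, which promotes the differentiation of protophloem, was 2.303-fold lower in MYB61 knockout cork. SWEET11, a sucrose exporter of the phloem, read 139.8, 141.2 and 136.5 in MYB61 knockout cork against 58.7, 58.9 and 66.3 in MYB50 knockout cork, with 82.1, 118.2 and 126.4 in Col-0 cork. It was 2.27-fold higher in the MYB61 knockout, without overlap of the 2 knockouts (limma adjusted p = 1.19e-07), and the tissues differed (adjusted p = 2.31e-05). The summed level of the 3 phloem genes was 528.5 to 594.7 in MYB61 knockout cork against 1044.9 to 1161.2 in MYB50 knockout cork, and that of the 4 cambium genes 658.4 to 746.3 against 1415.2 to 1492.1. CLE41 is the brightest member of both sums, and the part of these marker levels in the other cork results was not tested.

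Early genes of touch and wounding were split between the tissues. All 5 tested members had a lower xylem than cork difference by the test between tissues, where 7.94% of all probe sets did, with a median of -1.52. In cork 4 of the 5 were higher in the MYB61 knockout (median 1.17) and in xylem 2 were lower and none higher (median -0.36). Among all tested probe sets, 20.4% were higher in cork and 18.3% lower in xylem. Without the MYB50 knockout array labelled a repeat and the MYB61 knockout cork array of lowest weight, 2 of the 5 were higher in cork (median 0.64). STZ, a zinc finger repressor induced by many stresses, read 2163.3, 1323.3 and 1530.2 in MYB61 knockout cork against 766.1, 524.5 and 612.6 in MYB50 knockout cork and 662.6, 484.7 and 619.8 in Col-0 cork. MYB61 knockout xylem read 1388.6, 2090 and 1689.8, MYB50 knockout xylem 1962.2, 1008.7 and 1953.3, and Col-0 xylem 789.8, 784.5 and 725.6. In xylem both knockouts thus lay above Col-0 and overlapped each other, whereas in cork the MYB61 knockout alone stood high. The cork difference was 2.64-fold (limma adjusted p = 0.000146) and the xylem log2 difference 0.11 (adjusted p = 0.781). The difference between tissues was -1.25 (adjusted p = 0.0224). It missed the threshold without MYB61 knockout xylem replicate 1, MYB61 knockout cork replicate 1, MYB50 knockout xylem replicate 1 or 3, or MYB50 knockout cork replicate 2, left out in turn (log2 differences of -1.05 to -1.12, adjusted p = 0.0621 to 0.0743).

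ORA47, a transcription factor that activates jasmonate synthesis, read 454, 144.9 and 165.6 in MYB61 knockout cork against 84.8, 88.5 and 99.2 in MYB50 knockout cork, a 2.81-fold gap (limma adjusted p = 0.000914). The first MYB61 knockout array stood well above the other two. Without it and the repeat array, the log2 difference fell from 1.17 to 0.64 and was not called (adjusted p = 0.0578). CML37, a calmodulin-like calcium sensor, was called in opposite directions, at 19.9, 55.1 and 11.7 against 102.1, 26 and 107.9 in xylem and 101.2, 12.6 and 16.7 against 7, 6.9 and 7.1 in cork. Its cork value rested on 1 array: without MYB61 knockout cork replicate 1 the log2 difference was 0.41 rather than 1.06 and was not called (limma adjusted p = 0.299). The xylem groups overlapped, and the xylem call was lost without replicate 1 or replicate 3 of either knockout in xylem, left out in turn (log2 differences of -0.94 to -0.75, adjusted p = 0.0715 to 0.139). Of 7 tested calmodulin-like genes, CML37 among them, 5 were called higher in cork and 1 lower, where 20.4% of all tested probe sets were higher. The 5 fell to 2 without the repeat array and the MYB61 knockout cork array of lowest weight.

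Opposite calls ran the other way as well. AT1G67870, known here by its locus number, had means of 263 in MYB61 knockout and 104 in MYB50 knockout xylem, and of 1485 and 2814 in cork, so that it was higher in the MYB61 knockout in xylem (limma adjusted p = 1.78e-06) and lower in cork (adjusted p = 0.0001). Of the 228 probe sets with opposite calls, 128 were higher in the MYB61 knockout in cork and 100 in xylem. Some of the 128 leaned, like CML37, on the MYB61 knockout cork array of weight 0.218. AT3G02840 read 213.5, 52 and 56.3 against 25.1, 27.1 and 35.9 in cork. Its xylem groups overlapped, at 36.1, 158.8 and 33.5 against 198.6, 56.7 and 216.2. In AT3G56200 that array was the lowest of its group, at 161.3, 263.8 and 233.1. How many of the 128 leaned on it was not counted.

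**Figure D4:**
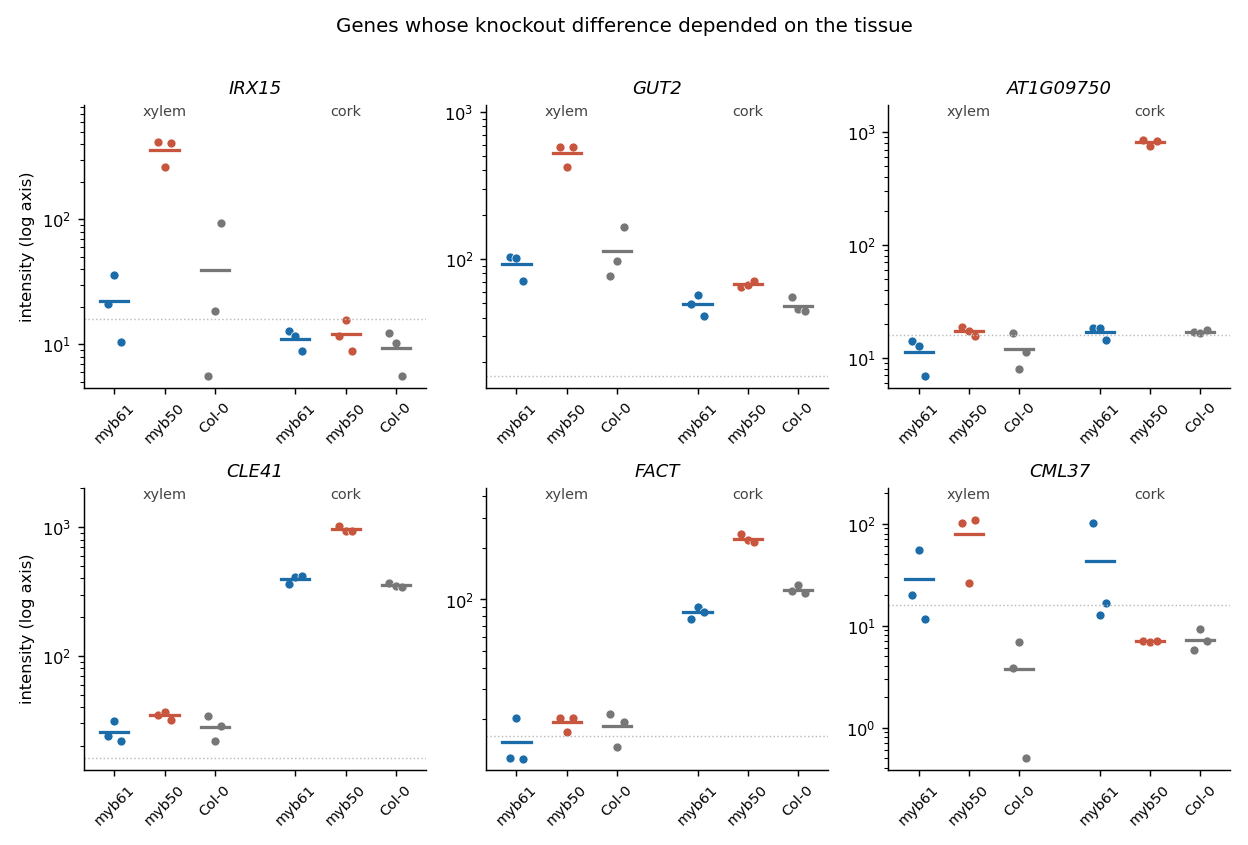
Intensity on a log axis in each array of the MYB61 knockout, the MYB50 knockout and Col-0, in xylem and in cork, for genes whose knockout difference depended on the tissue, with bars at group means and a dotted line at 16. IRX15 and GUT2 separate the knockouts in xylem, AT1G09750, CLE41 and FACT in cork, and CML37 changes direction with wide scatter between arrays.

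Other families and lists were mixed in direction or had few called or tested members. UDP-glycosyltransferases had 9 of 28 tested members higher and 6 lower in the mean over tissues (median near 0, at -0.002), and tau glutathione transferases had 3 of 7 higher and 3 lower, with GSTU15 higher by 1.05 (limma adjusted p = 6.45e-11). Tetraspanins had 6 of 11 lower and 2 higher, where 24.1% of all tested probe sets were lower. SWEET transporters had 2 of 12 lower and 1 higher, and ATG8 autophagy proteins 3 of 9 higher and 1 lower. Flavonoid genes had 1 of 4 tested lower, glucosinolate genes 2 of 4 lower, and abscisic acid response genes 1 of 3 lower, the dehydrin LTI30. In the auxin response list 2 of 3 tested were higher, HAT2 and WES1. The lists for cell cycle, heat shock, guard cell, suberin and nitrate assimilation had 1 tested member each. With the actin ratio as a covariate, 3286 of all 15924 tested probe sets were lower in the mean over tissues and 3189 higher, against 3845 and 4308 without it. The lower members were then 3 of 4 for xylan, 5 of 9 for expansins, 6 of 8 for GH9 endoglucanases and 4 of 6 for tubulins. They were 5 of 6 for RALF peptides, 6 of 7 for the endoplasmic reticulum body and 8 of 12 for nuclear photosynthesis. Higher members were 3 of 4 each for starch and ureide genes and 9 of 17 for bZIP genes. Counts of the other groups in that fit are not given here.

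**Figure D5:**
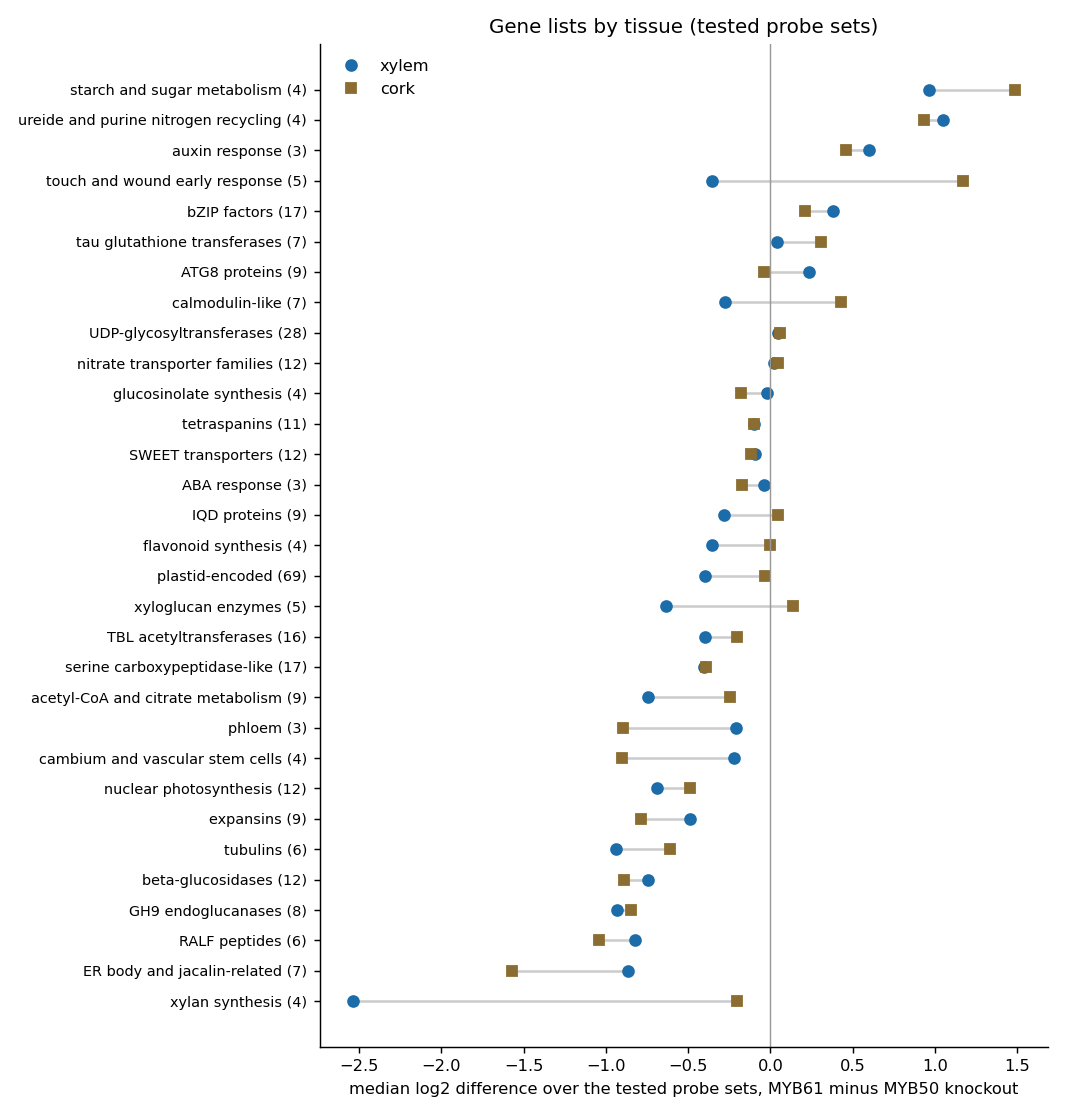
Median log2 difference (MYB61 minus MYB50 knockout) over the tested probe sets of each gene list in xylem (circles) and in cork (squares), with the number of probe sets in brackets. Xylan synthesis lies at -2.54 in xylem and -0.20 in cork, touch and wound genes at -0.36 and 1.17, and starch and ureide genes to the right in both tissues.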

How the data were processed

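Total RNA was hybridised to Affymetrix ATH1 arrays. The deposited values are linear intensity per probe set, scaled by the authors: the 2% trimmed mean was 100.01 in every array, and how probes were summarised is not stated in the labels. From these values log2(intensity + 16) was computed, 64 control probe sets of 22810 were left out, and 15924 with a mean intensity of at least 14.7 (the 30th percentile) were tested. Group means of all 36 arrays in 12 groups were fitted with limma 3.58.1 in R 4.3.3 (lmFit, contrasts, eBayes with trend, 24 residual degrees of freedom), two-sided, with Benjamini-Hochberg adjustment and a threshold of 0.05. The fit was tested on simulated data: among 15924 genes, it recovered 97% of genes changed by 1 on the log2 scale and 53% of those changed by 0.5 for xylem, 98% and 59% for cork, 99% and 88% for the mean, and 84% and 23% for the difference between tissues. False calls were 2.0%, 5.4%, 7.0% and 8.5% of calls, in that order. The simulation changed far fewer genes than were called in the data. Its noise was normal, independent and of equal spread across the arrays for each gene. These rates therefore describe the fit under that setting and need not hold for the arrays used here.

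Arrays were grouped by tissue and genotype labels. The number of arrays limits the precision. The 23 alternatives covered pseudocounts of 1 and 64, filters, quantile normalization, array weights, scanner background, a replicate block, only the 12 knockout arrays, each array left out, and 2 doubted cork arrays left out, plus the actin ratio as a covariate, chosen after seeing the data.

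Named genes were the up to 15 largest called differences each way in the mean over tissues with groups that did not overlap in either tissue, up to 8 each way for xylem, cork and their difference, and up to 4 called members of each list by adjusted p. Members and lists were chosen with earlier results of these data known. The families (nitrate transporters, ureide, bZIP, TBL, GH9, tubulin, IQD, RALF, endoplasmic reticulum body, beta-glucosidase, carboxypeptidase, acetyl-CoA, plastid-encoded, calmodulin-like, UDP-glycosyltransferase, glutathione transferase, tetraspanin, SWEET and ATG8 genes) and the members named beyond the rule were added after their values were seen. Gene names came from the platform annotation and RefSeq: 8857 tested probe sets had 1 gene, 1199 of them with a symbol, and the other 7067 are counted but not named. Of 641 genes in 25 lists, 66 were tested.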

Additional observations from a re-analysis of the deposited data

Results flagged for a closer look

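The xylem difference between the knockouts was unlike the cork difference, by limma's test, for 15.6% of all tested probe sets. The 8 largest each way among those with 1 gene, chosen by that same value, are given here as xylem minus cork on the log2(intensity + 16) scale. Those whose MYB61 minus MYB50 knockout difference was higher in xylem were AT1G09750 at 4.36, AT2G39850 at 3.69, AT1G60590 at 3.56, AT1G10640 at 3.25, SBT4.12 at 2.81, AT4G15680 at 2.74, AT4G15690 at 2.64 and AT1G62500 at 2.51. Those whose difference was higher in cork were IRX15 at -3.27, AT4G27435 at -2.81, AT1G79620 at -2.77, AT1G08340 at -2.63, AT1G56720 at -2.50, AT1G61890 at -2.41, AT5G47330 at -2.40 and GH9B5 at -2.39. AT4G27435 read 111, 137.3 and 61.7 in MYB61 knockout xylem against 1038.1, 808.1 and 1058 in MYB50 knockout xylem, and 62.4, 76.9 and 75.8 against 91.7, 84.5 and 94.6 in cork. AT1G60590 read 5.2, 7.4 and 5.7 in MYB61 knockout cork against 219.5, 239.6 and 218.2 in MYB50 knockout cork, and was at most 9.5 in the xylem arrays of the knockouts.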

How the results depend on the processing

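The count of probe sets with unlike xylem and cork differences was 1436 rather than 2491 when the 12 knockout arrays alone were fitted, which leaves fewer arrays to estimate the spread. That fit called 4994 probe sets in xylem, 5254 in cork and 7251 in the mean over tissues. Probe sets higher in MYB61 knockout cork numbered 1964 rather than 3250 with the actin ratio as a covariate, and the totals called stayed within 1.5 times the reported ones under all other alternatives. With 1 array left out, they ran from 5093 to 6483 for xylem, 5556 to 6500 for cork, 7616 to 8056 for the mean over tissues and 1917 to 2877 for the difference between tissues. Replicate numbers did not pair the samples (correlations of -0.428 to 0.327), and a replicate block gave 6102, 6343, 8144 and 2408 calls in the same order. Of the gene values called, 104 of 108 in the mean over tissues, 81 of 89 in xylem, 77 of 91 in cork and 46 of 70 for the difference between tissues kept their call under all 23 alternatives. CML37 turned to -0.45 (limma adjusted p = 0.0355) in the mean over tissues with array weights. Its cause was not tested. Log2 differences of dim genes shrank or grew with the pseudocount, as its construction implies. Values under 16 lie near background, and folds of genes close to it carry little precision.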
